A study of Mus musculus with 5 samples.

Results

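The unfolded protein response and the integrated stress response were followed through 10 genes in amygdala astrocyte libraries of CCR2-DTR mice. The genes were taken by symbol from a deposited count table of 35976 genes, and all 10 were in it. They form 2 arms. The ATF6/XBP1 arm held 6 genes of the endoplasmic reticulum (ER), Hspa5, Sdf2l1, Manf, Xbp1, Dnajb9 and Herpud1, and the ATF4 arm held 4, Atf4, Ddit3, Chac1 and Trib3. All but Trib3 passed the low-count filter, so 9 of 10 members entered the test of DTx-labelled against saline libraries. All libraries came from mice of genotype Ccr2::CreERT2/+;DTR/+, in which tamoxifen-inducible Cre made at the Ccr2 locus turns on a diphtheria toxin receptor. The study asked what part monocytes, the CCR2 cells that the toxin should remove, play in chronic stress. Saline and DTx (diphtheria toxin) mice alike were given tamoxifen, went through tube restraint for 18 days with saline or DTx given over that course, and were then fear conditioned and put through extinction. No unstressed group is among these libraries, and the age of the mice is not given in the sources used here. Amygdala tissue was dissociated with papain, cells were taken with magnetic beads against the astrocyte surface antigen ACSA-2, and 5 ng of total RNA was used per library. Saline replicates 1 and 2 and DTx libraries 5A, 6A and 7A were compared. The design text counts 3 mice per group, and each library was taken as a separate mouse.

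When unfolded proteins gather in the ER, 3 sensors of its membrane respond. ATF6 is cut into a transcription factor, IRE1 (gene Ern1) splices Xbp1 mRNA into the form that encodes an active factor, and PERK (gene Eif2ak3) phosphorylates the translation factor eIF2. ATF6 and XBP1 raise chaperones and the machinery of ER-associated degradation, which sends misfolded proteins to the proteasome. Phosphorylated eIF2 slows translation in general while favouring that of ATF4, and ATF4 then raises genes of amino acid supply and, with CHOP (gene Ddit3), of cell death. Kinases that sense amino acid lack, haem lack or double-stranded RNA act on the same eIF2 site, which is why this branch is called the integrated stress response. Astrocytes secrete much protein, and the chaperones of this pathway are part of their ordinary make-up. Counts per gene show neither Xbp1 splicing nor translation of Atf4.

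The promoters of the members are shown first because ATF6, XBP1 and ATF4 are known to act through short motifs in such promoters. Promoter windows of 300 bases, from 250 before to 50 after the gene start, were read from the RefSeq table of GRCm38.p6 for 9 of 10 members. Manf was not among them. Both strands were searched for the ER stress element ERSE (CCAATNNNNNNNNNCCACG), ERSE-II (ATTGG and CCACG with any base between them), the XBP1 site UPRE (TGACGTGG), the C/EBP-ATF element CARE (TGATGNAA) and for CCACG, which ends both ERSE and ERSE-II. Each line below gives 30 bases of the gene's own strand, 5′ to 3′, with the match in capitals and the place of its first base relative to the gene start. Matches of CARE lie on the opposite strand, so its reverse complement is seen.
Hspa5, ERSE at -65, chr2:34772020-34772049, + strand: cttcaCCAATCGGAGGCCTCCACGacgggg
Herpud1, ERSE-II at -52, chr8:94386368-94386397, + strand: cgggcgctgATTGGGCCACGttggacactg
Herpud1, CARE at -112, chr8:94386306-94386335, + strand: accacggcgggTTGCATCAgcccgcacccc
Chac1, CARE at -193, chr2:119351038-119351067, + strand: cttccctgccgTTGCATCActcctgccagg
Trib3, CARE at 14, chr2:152344028-152344057, - strand: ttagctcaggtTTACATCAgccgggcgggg

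An ERSE was in 0.119% and an ERSE-II in 0.0365% of all 32851 windows. Of the 5 windows of the ATF6/XBP1 arm, 1 held each, Hspa5 and Herpud1. A CARE was in 3.97% of all windows, in 2 of the 4 ATF4 arm windows (Chac1 and Trib3) and in 1 of the ATF6/XBP1 arm (Herpud1). Herpud1 was thus the 1 member whose window held both an ERSE-II and a CARE. CCACG alone, present in 32.8% of all windows, was in those of Hspa5, Herpud1, Sdf2l1 and Dnajb9 and in those of Atf4 and Chac1. No UPRE letters were in a member's window (0.676% of all windows). A match is a stretch of letters, and its use in these cells was not measured.

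Total counts were 15961220 to 23720299 per library. The lead astrocyte genes were abundant in all libraries, with Slc1a2, the main glutamate transporter, at 4912 to 5743 CPM (read counts scaled to a common library size, after TMM normalisation). Of the 8 astrocyte markers, 4 had a log2 fold change above 0. Without overlap 1 lay above saline and 2 below, where 12.1% and 8.99% of all genes tested did. Gfap, a cytoskeletal protein raised in reactive astrocytes, stood at 290.2 and 741.0 against 1079 (5A), 1132 (6A) and 1609 CPM (7A), and the water channel Aqp4 at 775.4 and 893.1 against 638.0, 586.5 and 770.7 CPM (edgeR adjusted p = 0.789 and 0.803). The part of these shifts in the results below was not tested. Oligodendrocyte RNA was abundant too. Of 8 oligodendrocyte markers 0 had a log2 fold change above 0, and 0 lay below saline without overlap. The 8 oligodendrocyte markers, none of which was at 0, summed to 58464 and 89879 CPM in the saline pair, against 41740 (5A), 43031 (6A) and 87897 CPM (7A), above the 16249 to 20855 CPM of 8 astrocyte markers in every library, so levels below are those of a mixed cell preparation. In bulk samples fewer cells of a type and less RNA per cell cannot be told apart. The 4 ependymal markers summed to 190.1 and 16.8 CPM in the saline pair, against 107.0 (5A), 19.5 (6A) and 19.9 CPM (7A), so saline replicate 1 and library 5A stood apart from the rest. Summed Y-linked genes were at 0.185 and 0.0897 CPM in the saline pair, against 201.2 (5A), 185.4 (6A) and 200.6 CPM (7A), so the sex of the mice and the treatment cannot be told apart in any result. Ccr2 had 0 counts in both saline libraries and 54 (5A), 4 (6A) and 4 (7A) in the DTx-labelled ones. That is the reverse of the direction a depletion would give, but Ccr2 did not pass the low-count filter. Depletion of CCR2 cells was not tested, so every direction is that of the libraries as labelled.

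No member passed the test. With edgeR's quasi-likelihood test the smallest adjusted p of the 9 was 0.789, where 0.0322% of 15532 genes passed at an adjusted p under 0.05. Those were 5 genes, Xist and the Y-linked Ddx3y, Eif2s3y, Uty and Kdm5d, whose levels follow the sex of the mice. No other gene passed that test, so the members did not differ from nearly all genes in this. At an unadjusted p under 0.05 there was 1 member, Hspa5, lower in the DTx-labelled libraries, where 2% of all genes were lower and 4.29% higher at that level. DESeq2, limma-voom and the edgeR likelihood ratio test called 0 of the 9, against 0.729%, 0.0322% and 0.644% of all genes. Hspa5, Xbp1 and Sdf2l1, of the ATF6/XBP1 arm, lay lower in all 3 DTx-labelled libraries than in both saline libraries. That is 3 of 9 members, where 8.99% of all genes lay that way and 12.1% the other way. No member lay higher without overlap.

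Hspa5 encodes BiP, the Hsp70-type chaperone of the ER lumen that also holds the stress sensors inactive (chromosome 2, 34772090 to 34776529 in GRCm38). It stood at 634.0 and 533.1 CPM in the saline pair, against 482.5 (5A), 377.7 (6A) and 322.9 CPM (7A). Each DTx-labelled library was below both saline libraries, and 7A was the lowest. The means were 583.5 ± 71.4 CPM (SD, n = 2) and 394.4 ± 81.1 CPM (SD, n = 3), a fold of 0.676 with a log2 fold change of -0.57 ± 0.22 (SE, edgeR adjusted p = 0.789). The gene overlaps Rabepk in the annotation, and Rabepk itself was at 18.2 ± 0.00584 and 18.2 ± 0.702 CPM. Without saline replicate 1 the log2 fold change of Hspa5 was -0.44, the weakest with a library left out, and without saline replicate 2 it was -0.69. Without library 5A it was -0.74. No p is given without a saline replicate, since 1 saline library is then left. Its unadjusted edgeR quasi-likelihood p of 0.0360 was 0.0151 without 5A, 0.103 without 6A and 0.0726 without 7A. With upper-quartile scaling that p was 0.0515, and with total-count scaling 0.0649. It stayed under 0.05 with RLE scaling, the other filters, DESeq2, limma-voom and the edgeR likelihood ratio test.

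Sdf2l1, an ER lumen protein that works with the BiP cofactor Dnajb11, was at 16.4 and 17.1 CPM in the saline pair, against 15.3 (5A), 12.3 (6A) and 11.96 CPM (7A). The groups did not overlap, though library 5A came close to saline. Its log2 fold change was -0.35 ± 0.18 (SE, edgeR adjusted p = 0.797). Manf, a BiP-binding ER protein that is also secreted as a trophic factor, was at 48.2 and 49.6 CPM in the saline pair, against 53.1 (5A), 48.1 (6A) and 38.3 CPM (7A). Library 5A was above both saline libraries and 7A below them. Its log2 fold change of -0.07 ± 0.17 (SE, edgeR adjusted p = 0.940) turned to 0.05 without library 7A.

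Xbp1, the transcription factor that IRE1 activates by splicing (chromosome 11, 5520641 to 5525993), was at 93.3 and 96.4 CPM in the saline pair, against 88.9 (5A), 71.5 (6A) and 63.7 CPM (7A). The groups did not overlap, with the same order of DTx-labelled libraries as for Hspa5. The log2 fold change was -0.34 ± 0.17 (SE, edgeR adjusted p = 0.797). The unadjusted edgeR quasi-likelihood p of 0.0892 was 0.0266 without library 5A, 0.205 without 6A and 0.203 without 7A. Dnajb9 (ERdj4), a J-domain cofactor that brings BiP to its clients and to IRE1, was at 86.3 and 122.8 CPM in the saline pair, against 116.4 (5A), 100.01 (6A) and 107.0 CPM (7A). All DTx-labelled libraries lay between the saline pair, and the log2 fold change was 0.04 ± 0.19 (SE, edgeR adjusted p = 0.968). Herpud1, an ER membrane protein of the degradation machinery, was at 75.1 and 62.8 CPM in the saline pair, against 78.4 (5A), 65.6 (6A) and 72.6 CPM (7A). Its groups overlapped, with a log2 fold change of 0.07 ± 0.15 (SE, edgeR adjusted p = 0.939). The 6 members of the arm therefore did not share a pattern. In GRCm38.p6, Dnajb9 lies on chromosome 12 (44205897 to 44210068), Herpud1 on chromosome 8 (94386429 to 94395371), Sdf2l1 on chromosome 16 (17130138 to 17132383) and Manf on chromosome 9 (106888753 to 106891938). Dnajb9 was at -0.19 when saline replicate 1 was left out, and Herpud1 at -0.06 when replicate 2 was.

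**Figure D1:**
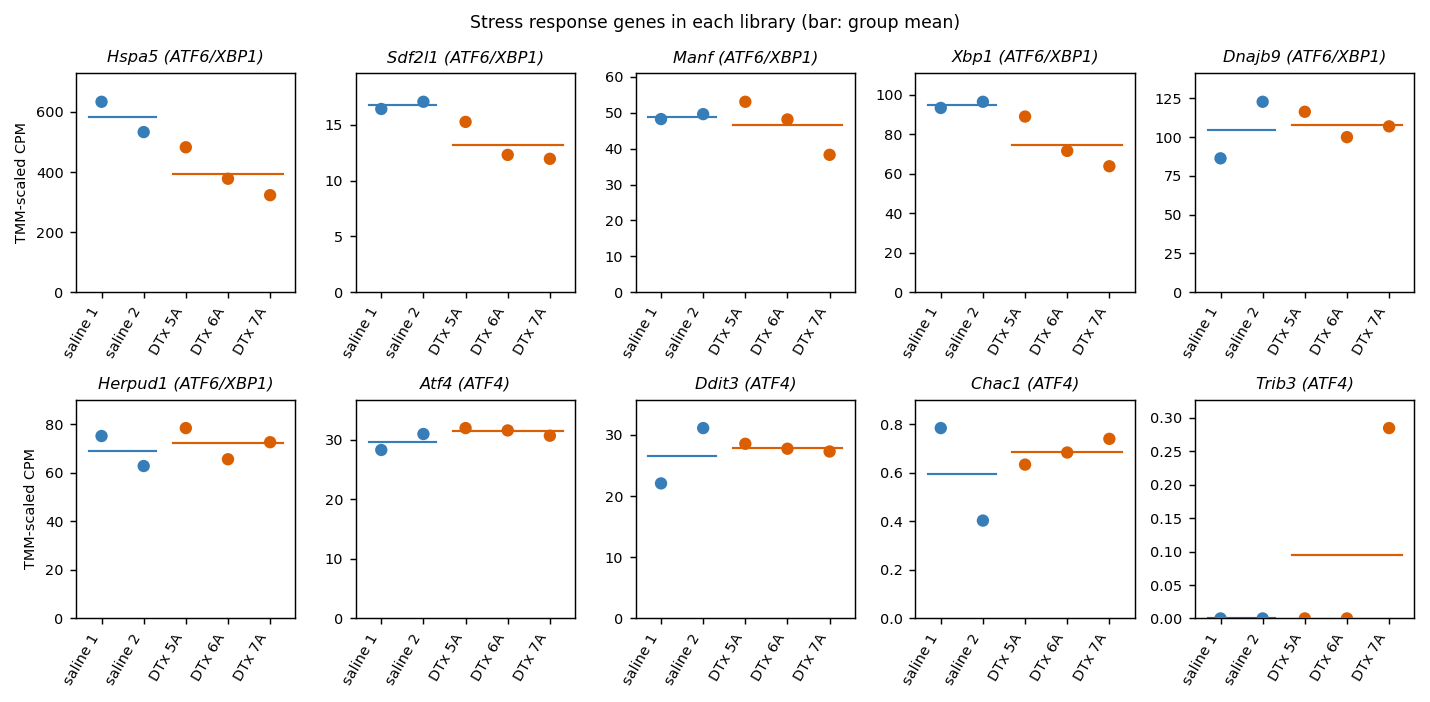
TMM-scaled CPM of the 10 members in each library, with 1 panel per gene, a linear axis from 0, blue points for saline, orange points for DTx-labelled libraries and bars for group means. Hspa5, Sdf2l1 and Xbp1 have all orange points below both blue points, the other members overlap, and Trib3 has counts in library 7A alone.

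Atf4, the transcription factor whose translation rises when eIF2 is phosphorylated (chromosome 15, 80255184 to 80257545), was at 28.3 and 30.9 CPM in the saline pair, against 31.9 (5A), 31.5 (6A) and 30.6 CPM (7A). The highest level was 1.13 times the lowest over 5 libraries, the narrowest range of any member tested. Its log2 fold change was 0.08 ± 0.13 (SE, edgeR adjusted p = 0.912). Ddit3 encodes CHOP, a factor that drives cell death in lasting ER stress, and was at 22.1 and 31.1 CPM in the saline pair, against 28.5 (5A), 27.7 (6A) and 27.3 CPM (7A). Those 3 lay between the saline pair, and the log2 fold change was 0.07 ± 0.18 (SE, edgeR adjusted p = 0.950). Without saline replicate 1 it was -0.16. Ddit3 overlaps Mars1 and Mbd6 in the annotation, and counting by strand is not stated, so its counts are uncertain. Mars1 (Mars in the table) averaged 43.4 ± 3.76 CPM in saline and 38.6 ± 2.33 under the DTx label (SD).

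The other 2 genes of this arm were near the limit of detection. Chac1, which breaks down glutathione, had 17 and 9 counts in the saline pair, against 12 (5A), 11 (6A) and 13 (7A), or 0.785 and 0.403 against 0.634, 0.684 and 0.741 CPM. Saline replicate 1 was the highest and saline replicate 2 the lowest, and the log2 fold change of 0.21 ± 0.51 (SE, edgeR adjusted p = 0.944) was -0.19 without saline replicate 2. Trib3, a pseudokinase that restrains ATF4, had 0 counts in both saline libraries, 0 in 5A and 6A, and 5 in 7A. Against a floor of 3 counts over the saline group, the 5 counts over the DTx-labelled libraries together came to 1.39-fold. Ddit3 lies on chromosome 10 (127290793 to 127296291), and Chac1 and Trib3 on chromosome 2 (119351242 to 119354326 and 152337425 to 152344060). The fold of Trib3 takes its 5 counts as exact, so it is no lower bound, and it rests on library 7A.

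**Figure D2:**
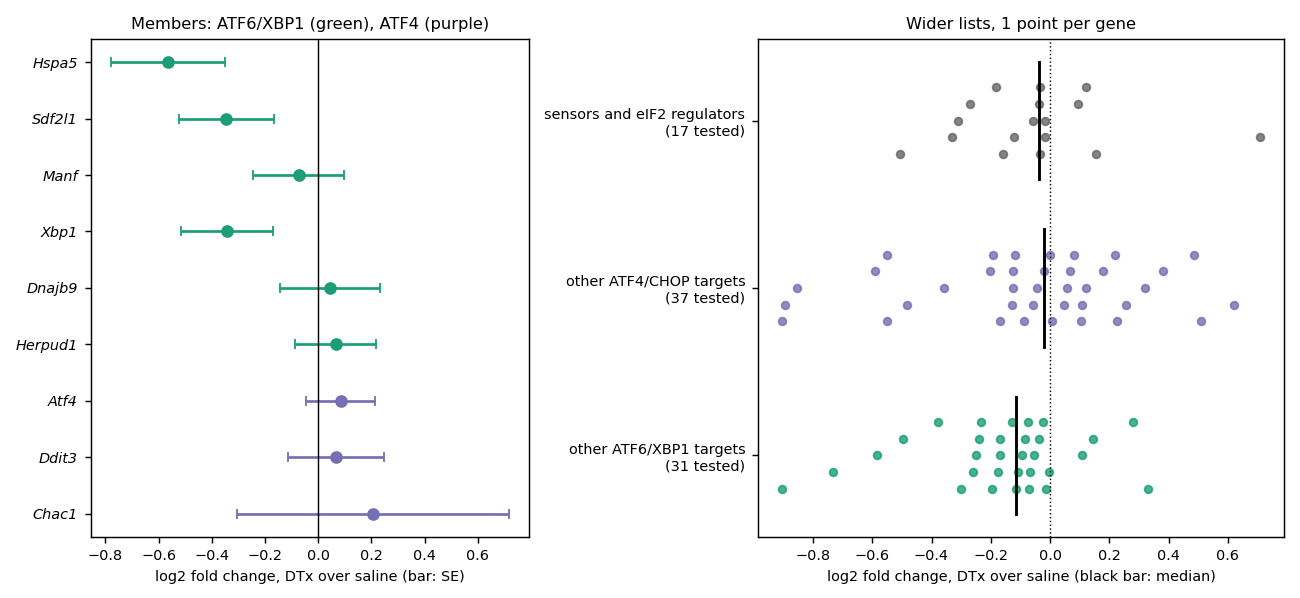
Log2 fold changes, DTx-labelled over saline, of the 9 members tested with SE bars (left) and of each gene of 3 wider lists with the median as a black bar (right). Hspa5 at -0.57 is the lowest member, the 3 ATF4 arm members tested lie between 0.07 and 0.21, and the bar of other ATF6/XBP1 targets is at -0.11.

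Set against each other, the arms had median log2 fold changes of -0.21 (6 ATF6/XBP1 members) and 0.08 (3 ATF4 members tested), beside 0.0017 over all genes tested. All 3 ATF4 members tested were above 0, as were 50.3% of all genes, and 4 of the 6 ATF6/XBP1 members were below 0, as were 49.7%. The mean log2 CPM of the ATF6/XBP1 arm was 6.36 and 6.38 in the saline pair, against 6.37 (5A), 6.11 (6A) and 6.02 (7A). Library 5A was at the level of saline. That of the ATF4 arm was 3.04 and 2.98 in the saline pair, against 3.13 (5A), 3.15 (6A) and 3.16 (7A). The gap between arms, in which scaling between libraries nearly cancels, was 3.32 and 3.40 in the saline pair, against 3.24 (5A), 2.96 (6A) and 2.86 (7A). It was smaller in each DTx-labelled library than in either saline library, but this rests on Chac1 and its few counts. With Atf4 and Ddit3 alone, chosen after seeing the data, the ATF4 arm was at 4.65 and 4.96 in saline and at 4.92 (5A), 4.89 (6A) and 4.86 (7A), between the saline values. The gap was then 1.71 and 1.42 against 1.45, 1.21 and 1.16, so library 5A overlapped saline. The difference of medians was -0.29, and -0.20 without library 7A and -0.39 without library 5A. For the ATF6/XBP1 arm alone the median was -0.10 without 7A and -0.32 without 5A, and for the ATF4 arm it was 0.0172 without saline replicate 1 and 0.151 without replicate 2. No p is given for these scores, since the members were chosen with earlier results known.

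Ratios of counts within a library, which no scaling alters, reuse the counts above and are no separate support. In those of Hspa5 and Xbp1 the DTx-labelled libraries kept the order 5A, 6A, 7A from high to low. Hspa5 over Herpud1 was 8.44 and 8.49 in the saline pair, against 6.16 (5A), 5.76 (6A) and 4.45 (7A). Hspa5 over Canx, the membrane chaperone calnexin, was 0.605 and 0.470 in the saline pair, against 0.422 (5A), 0.315 (6A) and 0.273 (7A). Neither ratio overlapped between groups. With Canx that was fixed by its parts, since Hspa5 lay lower and Canx higher without overlap. Canx was at 1048 and 1134 CPM in the saline pair, against 1144 (5A), 1199 (6A) and 1183 CPM (7A). Xbp1 over Atf4 was 3.30 and 3.12 in the saline pair, against 2.78 (5A), 2.27 (6A) and 2.08 (7A), again without overlap. By contrast Ddit3 over Atf4, both of the ATF4 arm, was 0.781 and 1.01 in the saline pair, against 0.894 (5A), 0.880 (6A) and 0.890 (7A), which lay between the saline pair. Hspa5 over Dnajb9 was 7.34 and 4.34 in the saline pair, against 4.15 (5A), 3.78 (6A) and 3.02 (7A), where saline replicate 2 was much nearer to library 5A than to saline replicate 1.

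**Figure D3:**
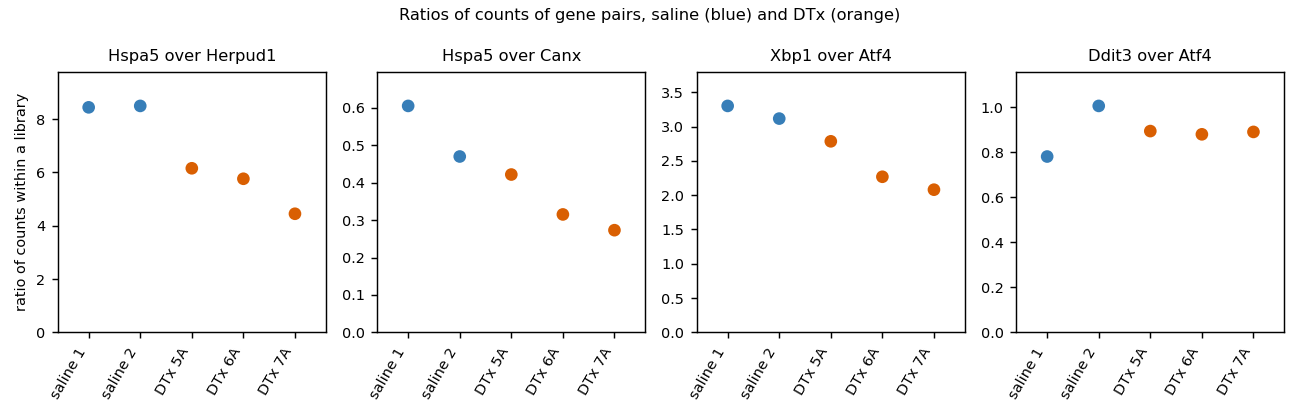
Ratios of counts of 4 gene pairs in each library (linear axes from 0, saline in blue, DTx-labelled in orange). Hspa5 over Herpud1, Hspa5 over Canx and Xbp1 over Atf4 are lower in every DTx-labelled library than in both saline libraries, while Ddit3 over Atf4 in them lies between 0.880 and 0.894, within the saline pair.

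The spread within groups differed between members. Within the DTx-labelled group the coefficient of variation was 20.6% for Hspa5, 17.2% for Xbp1, 16.2% for Manf and 13.8% for Sdf2l1, and 2.09% for Atf4 and 2.28% for Ddit3. Library 7A held 0.669 of the Hspa5 level of library 5A, 0.717 of that of Xbp1, 0.721 of that of Manf and 0.783 of that of Sdf2l1, but 0.919 and 0.926 of those of Dnajb9 and Herpud1. These 4 genes of the arm, and Atf4 and Ddit3 by small steps, were ordered 5A, 6A, 7A from high to low, as were 21.9% of all genes tested. In saline it was 45.4% for Chac1, with its few counts, 24.05% for Ddit3 and 24.7% for Dnajb9. The pair of members closest in pattern was Xbp1 and Sdf2l1, with a root mean square difference of 0.0465 log2 units between their centred values over 5 libraries. Dnajb9 was closer to Ddit3 of the other arm (0.0588) than to Hspa5 (0.423).

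Levels of genes were compared per kilobase of exon, over the union of exons in GENCODE M21. Hspa5 led at 111.1 CPM per kb as a mean over 5 libraries, followed by Dnajb9 at 41.8, Herpud1 at 30.4 and Xbp1 at 25.5 CPM per kb. Ddit3 at 15.97, Manf at 13.5, Sdf2l1 at 13.2 and Atf4 at 13.0 CPM per kb came next. Chac1 at 0.397 and Trib3 at 0.0268 CPM per kb were last. Hspa5, at 76.4 to 149.9, was above every other member in each library. Dnajb9 at 33.9 to 48.2 overlapped neither Herpud1 at 26.9 to 33.6 nor Xbp1 at 19.6 to 29.7, which overlapped each other, and Ddit3, Manf, Sdf2l1 and Atf4 overlapped each other, so their order is not resolved. The level of Atf4 and Ddit3 was therefore like that of the smaller chaperone genes, while their targets Chac1 and Trib3 were the lowest of the members.

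A wider list of other ATF6/XBP1 targets put the chaperone members in context. Of its 31 genes, all tested, 0 passed the test (0 higher, 0 lower), and 27 had a log2 fold change below 0, as 49.7% of all genes did. The median was -0.11, 2 lay without overlap above saline and 7 below it, where 12.1% and 8.99% of all genes did. Left-out libraries moved the count below 0 to between 19, with saline replicate 1 as the lone saline library, and 28, with saline replicate 2 as the lone one. The list's mean log2 CPM was 6.31 and 6.35 in the saline pair, against 6.22 (5A), 6.12 (6A) and 6.14 (7A). The unadjusted p was under 0.05 for 2 of them, both lower. Syvn1 (HRD1), the ubiquitin ligase of ER-associated degradation, was at 36.7 and 25.6 CPM in the saline pair, against 14.6 (5A), 16.9 (6A) and 24.7 CPM (7A) (log2 fold change -0.73 ± 0.27, SE, edgeR adjusted p = 0.789). Hyou1 (GRP170), a large BiP-related chaperone, was at 12.6 and 7.40 CPM in the saline pair, against 4.23 (5A), 4.85 (6A) and 6.95 CPM (7A) (-0.90 ± 0.33, SE, edgeR adjusted p = 0.789). In both, library 5A was the lowest and 7A the highest of the DTx-labelled group, the reverse of Hspa5. When saline replicate 1 was left out, Syvn1 was at -0.45 and Hyou1 at -0.47, and without both saline replicate 1 and library 5A they were at -0.31 and -0.34. Pdia4, an ER disulfide isomerase, was at 58.4 and 59.5 against 52.5, 38.1 and 45.3 CPM, and Creld2, a secreted ER stress gene, at 31.9 and 25.5 against 26.3, 19.7 and 15.1 CPM. Hsp90b1 (GRP94), the ER's Hsp90 and picked here as the partner of BiP after its values were seen, was at 473.5 and 466.9 against 451.9, 400.3 and 342.6 CPM (log2 fold change -0.24). In it the order of libraries was that of Hspa5.

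**Figure D4:**
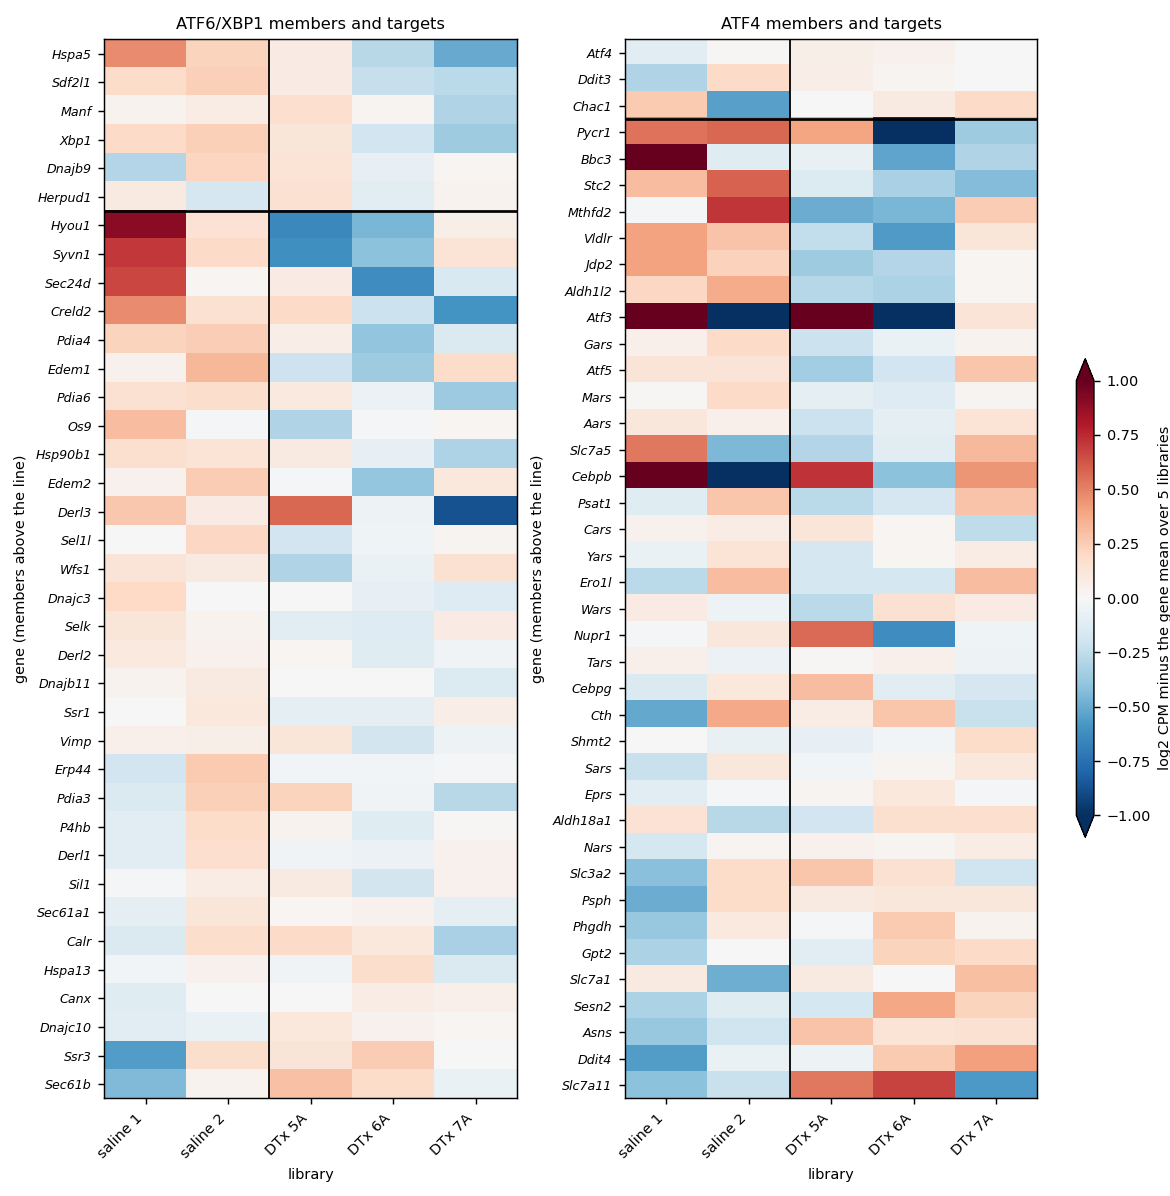
Log2 CPM of each tested gene minus its mean over the 5 libraries, for ATF6/XBP1 members and targets (left) and ATF4 members and targets (right), with members above the horizontal line, targets sorted by log2 fold change and colours clipped at -1 and 1. Hspa5, Sdf2l1 and Xbp1 are red in saline and blue in DTx libraries 6A and 7A, while Atf4 is pale throughout.

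The targets could be split by the ERSE letters, which the choice of members did not use. Of 31 members and targets of the ATF6/XBP1 list with a promoter window, 9 held an ERSE: Hspa5, Hsp90b1, Calr, Canx, Pdia6, Dnajc3, Creld2, Syvn1 and Derl3. Of these 8 were below 0, with a median log2 fold change of -0.24 and a range of -0.73 to 0.11. Of the 22 without an ERSE 17 were below 0, with a median of -0.11. The 12 tested genes of neither list with an ERSE in their window had a median of -0.28, with 8 below 0. The difference between these sets was not tested, and 9 or 12 genes are few.

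Other ATF4 and CHOP targets showed no common direction. Of 37 tested out of 39, 0 passed the test (0 higher, 0 lower), 17 had a log2 fold change above 0 and 20 below, and the median was -0.02. Asns, the asparagine synthetase that ATF4 induces when amino acids are short, was at 5.96 and 6.77 CPM in the saline pair, against 9.51 (5A), 8.58 (6A) and 8.66 CPM (7A) (log2 fold change 0.49 ± 0.21, SE, edgeR adjusted p = 0.789). Ddit4 (REDD1), an inhibitor of mTOR signalling that glucocorticoids also induce, was at 67.0 and 94.2 against 94.9, 118.2 and 130.8 CPM. Both were higher without overlap, though library 5A exceeded saline replicate 2 narrowly for Ddit4, whose log2 fold change of 0.51 was 0.28 when saline replicate 1 was left out. Vldlr, a lipoprotein receptor, was at 102.5 and 94.7 against 65.4, 52.4 and 84.2 CPM (log2 fold change -0.55 ± 0.21, SE, edgeR adjusted p = 0.789), and Aldh1l2, a mitochondrial folate enzyme, at 6.65 and 7.44 against 4.704, 4.602 and 5.810 CPM. These 2 lay lower without overlap. In the whole list 3 of 37 lay above saline without overlap and 6 below, beside 12.1% and 8.99% of all genes. Of the 12 members and targets with a CARE in their window 8 were below 0 (median -0.09), and of the 22 without one 8 were (median 0.07).

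Sensors and regulators of eIF2 were measured alongside. Of 17 tested, 0 passed (0 higher, 0 lower), 4 were above 0 and 13 below, with a median of -0.04. Ern1 (IRE1) was at 2.82 and 2.42 CPM in the saline pair, against 1.53 (5A), 2.49 (6A) and 2.22 CPM (7A). Atf6 was at 16.9 and 22.1 against 20.3, 19.2 and 22.8 CPM, and Eif2ak3 (PERK) at 18.9 and 25.7 against 18.4, 18.1 and 23.4 CPM. All 3 sensors overlapped between groups, with log2 fold changes of -0.33 ± 0.36, 0.09 ± 0.18 and -0.16 ± 0.20 (SE). Eif2ak2 (PKR), the eIF2 kinase that senses double-stranded RNA and is induced by interferon, was at 20.7 and 24.5 CPM in the saline pair, against 32.9 (5A), 48.5 (6A) and 29.6 CPM (7A). It was the 1 gene of this list higher without overlap (log2 fold change 0.71 ± 0.24, SE, edgeR adjusted p = 0.789), 1 of 17 where 12.1% of all genes lay that way, and its log2 fold change was 0.46 without library 6A. Mbtps2, the protease that makes the second cut in ATF6, was at 12.1 and 14.6 against 9.41, 7.84 and 10.99 CPM, lower without overlap, as was Eif2b3, a subunit of the eIF2 exchange factor, at 26.6 and 26.4 against 22.4, 17.7 and 26.0 CPM. These 2 of 17 compare with 8.99% of all genes, and Eif2b3 went from -0.27 to -0.14 without library 6A. Atf6b, a relative of Atf6, was at 42.5 and 38.8 against 27.0, 32.3 and 39.0 CPM, with overlap in library 7A.

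Other gene groups moved beside these results, and their part in them was not tested. Of 11 immediate early genes tested, which dissociation and neuronal activity induce, all had log2 fold changes below 0 (median -0.65), with a summed level of 1041 and 421.9 CPM in the saline pair, against 565.8 (5A), 263.6 (6A) and 533.2 CPM (7A). Arc, a synaptic activity gene, was at 85.6 and 69.8 against 18.0 (5A), 25.3 (6A) and 34.3 CPM (7A), with a log2 fold change of -1.59 ± 0.27 (SE). Its adjusted p was 0.759 with edgeR's quasi-likelihood test, 0.000169 with DESeq2 and 7.52e-05 with the edgeR likelihood ratio test. Without saline replicate 1, Fosb and Ier2 of this list were above 0, at 0.13 and 0.68. The summed level of the list was highest in saline replicate 1 and lowest in 6A, and its relation to Hspa5 was not tested. Cytosolic heat shock genes, which respond to misfolding outside the ER, were below 0 for 6 of 9 tested (median -0.17), and Dnajb1 among them was at 59.8 and 40.3 against 38.6, 36.8 and 37.0 CPM, with a log2 fold change of -0.42 that was -0.11 when saline replicate 1 was left out. Mitochondrial transcripts were above 0 for 9 of 9 tested (median 0.33). The 8 microglia markers, none at 0, were all above 0 and summed to 87.3 and 215.9 CPM in the saline pair, against 341.7 (5A), 262.8 (6A) and 205.4 CPM (7A), so saline replicate 2 overlapped 7A. Neuronal markers were above 0 for 7 of 8, summing to 233.6 and 236.9 against 287.8, 371.5 and 326.8 CPM, without overlap. Of these 8, 4 lay above saline without overlap and 0 below, beside 12.1% and 8.99% of all genes. The 6 monocyte and macrophage markers, of the cells that the toxin targets, summed to 10.2 and 15.9 against 72.3 (5A), 11.9 (6A) and 28.7 CPM (7A), highest in 5A. The sums were 56.1 and 76.3 against 53.2, 68.2 and 83.4 CPM for oligodendrocyte precursors, 146.5 and 333.6 against 226.9, 201.6 and 253.7 CPM for endothelium and pericytes, and 33.1 and 22.6 against 80.3, 98.3 and 23.5 CPM for choroid plexus, overlapping in each. Plasma and B cell markers, of cells rich in these chaperones, summed to 0.493 to 0.970 CPM in all libraries over the 3 found in the table. Without saline replicate 1 and library 5A together, the pair rich in ependymal markers, Hspa5 had a log2 fold change of -0.62, Xbp1 of -0.53 and Sdf2l1 of -0.51, and the medians of the arms were -0.38 and -0.01.

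Genes with the pattern most like each arm were sought among 8958 tested genes of at least 10 CPM. The measure was the root mean square difference, over 5 libraries, between log2 CPM values centred on their means. Nearest to the ATF6/XBP1 arm were Rbm48 (0.0254), Porcn (0.0315), Mtif2 (0.0366), Ercc1 (0.0463) and Sos1 (0.0474), where the median over those genes was 0.248. Rbm48 was at 11.4 and 11.6 CPM in the saline pair, against 10.9 (5A), 9.33 (6A) and 8.89 CPM (7A). Nearest to the mean of the 3 tested members of the ATF4 arm, Chac1 included, were Fam135a (0.0195), Cndp2 (0.0226), Tmem222 (0.0232), Fem1b (0.0239) and Homer2 (0.0256), with a median of 0.192. Fam135a was at 28.4 and 28.1 CPM in the saline pair, against 31.5 (5A), 31.7 (6A) and 31.5 CPM (7A), higher without overlap. Atf4, Ddit3 and Chac1 each overlapped between groups, so that mean, and the genes near it, show the pattern of no single member. None of these 10 genes was on the stress response lists.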

How the data were processed

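The authors deposited raw read counts per gene symbol, 1 column per library. STAR 2.7.5c, featureCounts 2.0.1 and fastp 0.23.2 are named in the submitters' processing notes, with builds GRCm38 and mm10. How strand was used is not stated. Columns headed Ctrl were matched to saline samples by number, DTx columns to the group alone, and 1 further column, also headed Ctrl, matched no sample label used here and was left out, so every saline mean, SD and overlap rests on 2 of the 3 saline mice of the design text. All pairs of libraries differed by more than sampling noise (chi-square per degree of freedom at least 14.2 over genes with 20 counts). By this measure the libraries did not group by label. Saline replicate 2 was at 17.7 from 7A and 60.0 from saline replicate 1. Libraries 5A and 6A were at 14.2 from each other, and 7A was at 60.7 from 5A and 58.4 from 6A.

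Genes were tested with edgeR 4.0.16 in R 4.3.3 (TMM, filterByExpr with minimum count 10, robust quasi-likelihood F test, Benjamini-Hochberg over 15532 genes, threshold 0.05), tested on simulated data. SEs are the log2 fold change divided by the root of F. Log2 CPM used a prior count of 2. Depth was 15961220 to 23720299 counts, and reads carry no stated molecular identifiers. Alternatives were other scalings, filters, DESeq2 1.42.0, voom of limma 3.58.1 and left-out libraries.

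The members, 18 gene and marker lists and tests were chosen with earlier results of these data known. Named by rule were all members, up to 4 genes of smallest p per list, 3 sensors and the 5 most similar genes per arm. Named outside this rule were Canx, Hsp90b1, single marker genes, the genes that overlap a member and those listed for an ERSE. The rule did not set the pairs of genes for the ratios either. Selenos, Selenok and Mars1 were matched through older symbols.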

Additional observations from a re-analysis of the deposited data

How the results depend on the processing

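No paired analysis was possible because the DTx columns carry no replicate number of the labels. No member and no gene of the 3 wider lists passed under any of the 14 other settings of the count test. Hspa5, Xbp1 and Sdf2l1 were below 0 in all of them, Hspa5 between -0.74 and -0.44 on the log2 scale with an adjusted p of 0.382 to 0.9998. Leaving out 1 library at a time put the ATF6/XBP1 arm median at -0.32 to -0.10 and the ATF4 arm median at 0.0172 to 0.151. The lowest and highest log2 fold changes with a library left out, for genes that turned sign, were -0.19 (without saline replicate 1) and 0.32 for Dnajb9, -0.0576 and 0.199 for Herpud1, -0.182 and 0.0487 for Manf, -0.16 and 0.34 for Ddit3, -0.19 and 0.75 for Chac1, -0.0883 and 0.299 for Atf6, -0.368 and 0.0809 for Eif2ak3, -1.85 and 0.13 for Fosb, and -1.98 and 0.68 for Ier2. Without saline replicate 1 and library 5A together, chosen after seeing the data, the arm medians were -0.38 and -0.0074, that of other ATF6/XBP1 targets was -0.19, and Dnajb9 was at -0.26, Atf4 at -0.0074, Ddit3 at -0.19, Atf6 at -0.0849, Fosb at 0.0685 and Ier2 at 0.15. Without Chac1, also chosen after seeing the data, the mean log2 CPM of the ATF4 arm differed by 0.0862 (0.135 with it). Where 1 saline library was left, it was assumed to vary like the DTx-labelled ones. The cause was not tested. With genes of at least 1 CPM, 3 of the 5 genes nearest the ATF6/XBP1 arm were shared. Counts of Chac1 and Trib3 are too few to show a difference at this depth.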
